A study of Mus musculus with 8 samples.

Results

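The comparison described here sets 2 states of wild-type mouse thymocytes against each other: precursors that met a strong T cell receptor signal inside the thymus, and thymocytes that were given such a signal in a dish. It rests on the 4 libraries labelled WT, 2 of each state, out of 8 RNA sequencing libraries in 4 groups. All 4 WT libraries are from mice of genotype Bcl6fl/fl, in which the gene of the transcriptional repressor Bcl6 carries recombination sites but no Cre is present; the other 4 libraries are labelled KO and carry Cd4cre as well. The in vivo group (agonist-p in the labels) holds thymocytes sorted as CD4-, CD8-, CD5+ and TCRb+. The in vitro group started from CD4+CD8+ double-positive thymocytes, which were stimulated for 24 h by antibodies to CD3 and CD28 fixed to the plate, each at 8 ug/ml, and then sorted again as CD4-CD8- double-negative cells. Strain, age and sex were not stated, and the labels do not say whether the replicates came from separate mice or cultures, so the p-values measure the spread between these libraries, which may be technical. The in vivo libraries were made and sequenced by BGI Genomics and the in vitro libraries by Novogene, per the labels. System and sequencing provider therefore cannot be told apart in any result below.

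Developing T cells pass a double-positive stage at which the T cell receptor is tested on self-peptides. A weak signal leads to conventional CD4 or CD8 T cells, while some cells that bind self strongly lower both coreceptors and become agonist-selected precursors, which leave the thymus and give rise, among others, to the CD8αα intraepithelial lymphocytes of the gut. Stimulating double-positive thymocytes through CD3 and CD28 is used as a culture model of that strong signal: it lowers CD4 and CD8 and turns on Nr4a and Egr transcription factors, PD-1 and other receptors that follow signal strength.

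Total counts were 23975636 and 15644567 in the in vitro libraries and 16022736 and 15548622 in the in vivo libraries. The in vitro tables list 12133 genes, those of the in vivo cells 12665, with 11725 symbols in both. Counts of the 10056 genes with at least 1 FPKM (the authors' value, a fragment count scaled to transcript length and library size) in at least 2 of the 4 libraries were tested. Levels are given below as FPKM in replicate 1 and replicate 2, and differences as log2 fold changes of counts, in vivo minus in vitro, with a standard error and an adjusted p from edgeR's quasi-likelihood test. "Called" means an adjusted p under 0.05. With 2 libraries against 2, an exact two-sided permutation test of a single gene cannot go below p = 0.333, so each call borrows the spread estimated across all genes.

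More genes differed between the systems than did not. The test called 3305 genes higher in vivo (32.9% of those tested) and 3343 higher in vitro (33.2%), together 66.1%, and the 2 groups of libraries did not overlap in 8537 genes (84.9%). A count of members called or not overlapping is to be read against these shares. A list divided in about these shares is not set apart from all genes by that. Large differences were fewer and leaned to the in vivo side: 734 genes (7.3%) were called and at least 4-fold higher in vivo, and 259 (2.58%) at least 4-fold higher in vitro. Part of this lean comes with genes that passed the level filter through the in vivo libraries only: with at least 1 FPKM required in all 4 libraries the counts were 304 and 186. A gene under 1 FPKM in both libraries of a group could pass only by being higher in the other group. The list counts and medians below include such members. Single genes named below include them too, in either direction, among them Runx3, Jun, Bcl3, Cd44, Cish, Idi1 and Slc1a4. For each gene under 1 FPKM in both libraries of a group, the filter fixed the direction. The median log2 fold change over all tested genes was -0.01. In bulk RNA, fewer cells of a type and less RNA per cell cannot be told apart.

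**Figure D1:**
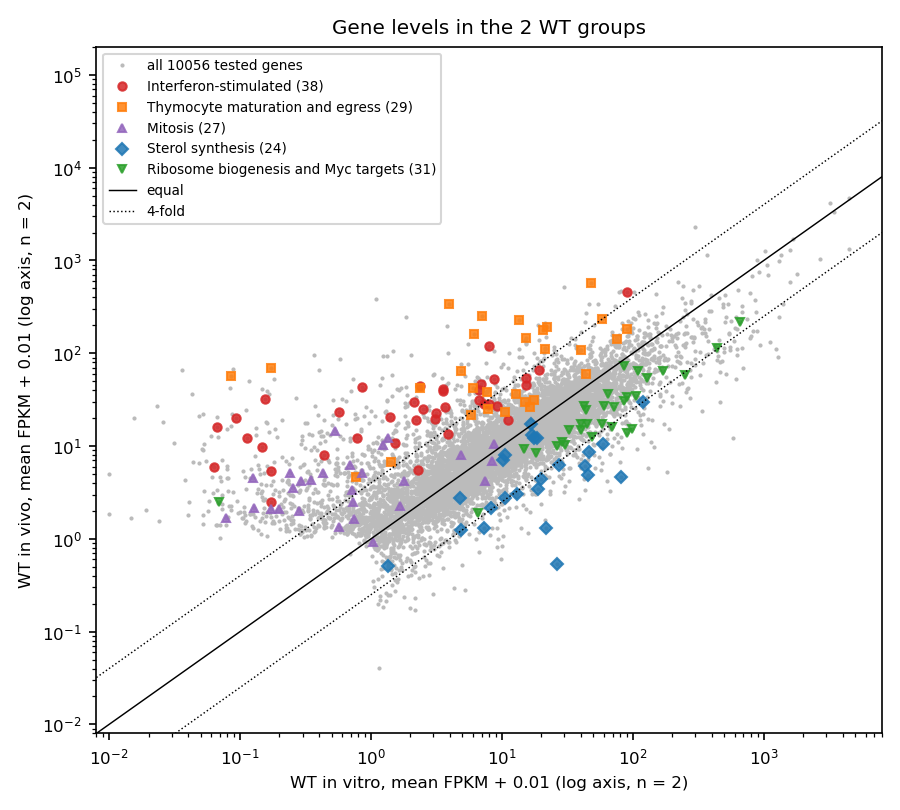
Mean FPKM (plus 0.01, log axes) of each of the 10056 tested genes in the 2 WT in vitro libraries (x) and the 2 WT in vivo libraries (y), with members of 5 gene lists in colour and dotted lines at a 4-fold difference. All 38 interferon-stimulated and all 29 maturation and egress genes tested lie above the line of equal levels, and 23 of 24 sterol synthesis genes were called below it.

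Among genes with a mean of at least 5 FPKM in the higher group and no overlap, the 12 largest differences toward the in vivo cells were those of Adgrg5, Samd3, Adam19, Zbtb7b, Cdh1, Ly6c2, S100a6, Il18rap, Igfbp4, Abca1, Ifitm10 and Lgals3. Several of these were close to absent in vitro. Adgrg5, an adhesion G protein-coupled receptor, had 1 and 2 counts in vitro against 3937 and 2912 in vivo. The ratio of summed counts, scaled to the TMM-normalized library totals of the tested genes, was 2764 (95% interval 945 to 13407, which covers counting error only). Zbtb7b (chromosome 3, 89377644 to 89394776, minus strand, GRCm38), which encodes ThPOK, the factor that commits thymocytes to the CD4 lineage, had 3 and 4 counts in vitro against 3475 and 3284 in vivo, a ratio of 1169 (567 to 2909). Abca1, a cholesterol exporter, stood at 0.0482 and 0.0295 FPKM in vitro and at 19.4 and 22.8 in vivo (log2 fold change 8.98 ± 0.20, SE). The 12 largest toward the in vitro cells were Idi1, Rpl23a, Rgs16, Lars2, Slc1a4, Cyp51, Sqle, Zc3h12c, Rpl29, Rpl21, Hnrnpf and Cycs. Idi1, Cyp51 and Sqle are enzymes of sterol synthesis. Rgs16, a brake on G protein signalling, stood at 138 and 125 FPKM in vitro and at 5.39 and 6.22 in vivo (-4.52 ± 0.13, adjusted p = 4.78e-08). Slc1a4, a transporter of neutral amino acids, stood at 5.77 and 4.72 in vitro and at 0.228 and 0.317 in vivo (-4.29 ± 0.24).

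The coreceptor genes went in different directions. Cd4 stood at 6.84 and 6.98 FPKM in vitro and at 26.8 and 55 in vivo (2.53 ± 0.27, adjusted p = 4.4e-05), and the in vivo replicates were further apart than the in vitro ones. Cd8a went the other way, at 9.67 and 10.9 in vitro and 1.68 and 2.43 in vivo (-2.35 ± 0.18), while Cd8b1, at 5.22 and 8.09 against 4.03 and 4.9, was not called (-0.59 ± 0.24, adjusted p = 0.0591). Cd5, the receptor used to sort the in vivo cells, was nonetheless higher in vitro, with 272 and 243 FPKM against 74.1 and 86.3 (-1.71 ± 0.14). Bcl6 itself (chromosome 16, 23965052 to 23988852, minus strand) was higher in vitro, at 24.9 and 21.9 FPKM against 11.5 and 13.9 (-0.91 ± 0.12, adjusted p = 0.000148). Of 12 tested genes of Bcl6 and its corepressors 6 were called higher in vitro, among them Hdac2 (-0.67 ± 0.11), and 3 higher in vivo, among them Bcor (0.34 ± 0.11). Of the 18 tested genes of double-positive identity, 5 were called higher in vivo and 4 higher in vitro, and the recombinase genes Rag1 and Rag2 were under the level filter. Cd24a, lost as thymocytes mature, and the transcription factor Myb were higher in vitro (-1.65 and -1.50). Ccr9, the receptor for the thymic and gut chemokine CCL25, was slightly higher in vitro (-0.51 ± 0.14).

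Genes that follow the strength of the T cell receptor signal divided, with more calls on the side of the stimulated cells. Of 30 such genes, 15 were called higher in vitro and 8 higher in vivo, with a median log2 fold change of -0.39. Nr4a2 and Nr4a3, orphan nuclear receptors, led this group: Nr4a2 stood at 110 and 110 FPKM in vitro and at 19.3 and 26.7 in vivo (-2.29 ± 0.15), and Nr4a3 at 104 and 104 against 20.1 and 31.5 (-2.04 ± 0.19). Their family member Nr4a1 differed less, at 228 and 205 against 135 and 158 (-0.59 ± 0.13). The Egr factors split. Egr2 was higher in vitro, with 79.5 and 72.5 against 21.3 and 22.7 FPKM (-1.81 ± 0.11), and Egr3 was higher in vivo, with 6.66 and 6.03 against 27.7 and 27.4 (2.09 ± 0.11). Irf4, a transcription factor graded with signal strength, was higher in vitro (-1.78 ± 0.12), and Cd83, Gadd45b and Dusp6 were higher in vivo (2.72, 2.45 and 1.21). Cd69, an early activation marker that also holds cells in tissue, was slightly higher in vitro (16.8 and 16.8 against 13.5 and 12.9, -0.37 ± 0.10). Myc, at 90.5 and 81.3 against 75.1 and 72.1, was not called (-0.25 ± 0.11, adjusted p = 0.0764).

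The immediate-early genes of the AP-1 group went the opposite way. Of 16 tested, 13 were called higher in vivo and 2 higher in vitro, with a median of 2.11. Jun stood at 0.81 and 0.672 FPKM in vitro and at 26.6 and 17.4 in vivo (4.85 ± 0.26), and Fos at 3.08 and 2.99 against 75.3 and 44.6 (4.28 ± 0.26). Junb, at 47.7 and 45.1 in vitro, reached 451 and 234 in vivo. Dusp1, a phosphatase that ends MAP kinase signals, went from 11.5 and 11.1 in vitro to 141 and 60.3 in vivo. In each of these the in vivo replicates were further apart than the in vitro replicates, yet no in vivo value came near an in vitro one. The 2 exceptions were Maff and Ier2, both modestly higher in vitro (-0.84 and -0.65).

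**Figure D2:**
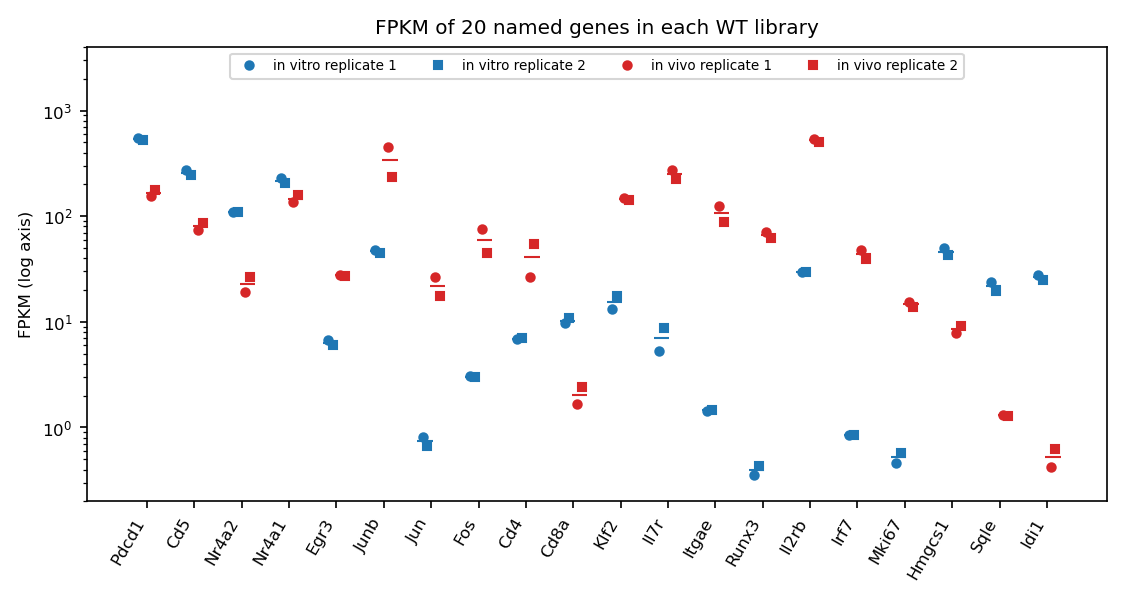
FPKM (log axis) of 20 named genes in each WT library, with a circle for replicate 1, a square for replicate 2 and a short line for the group mean. Signal-strength genes from Pdcd1 to Nr4a1 and the sterol genes at the right are higher in the in vitro libraries, while Jun, Fos, Klf2, Il7r, Itgae and Runx3 are higher in the in vivo libraries, and no gene shown overlaps between groups.

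Coinhibitory receptors were higher in vitro in 7 of 11 tested genes and higher in vivo in 3. Pdcd1, which encodes PD-1 and lies on chromosome 1 (94038305 to 94052553, minus strand), stood at 547 and 531 FPKM in vitro and at 156 and 178 in vivo (-1.71 ± 0.13, adjusted p = 4.72e-06). Tigit and Cd274, the latter coding for the PD-1 ligand PD-L1, were also higher in vitro (-1.49 ± 0.15 and -1.48 ± 0.11). Vsir, Ctla4 and Cd244a were higher in vivo: Vsir stood at 7.6 and 7.19 against 39.5 and 34.2 FPKM, and Ctla4 at 0.894 and 1.21 against 4.92 and 8.72. Cd160, a receptor of intraepithelial and cytotoxic lymphocytes, stood at 43 and 36 against 44.9 and 46.1 and was not called (0.18 ± 0.11, adjusted p = 0.186). Costimulatory genes divided as well, with 7 of 17 called higher in vivo and 4 higher in vitro (32.9% and 33.2% over all tested genes). Tnfrsf9, which encodes 4-1BB and is induced by activation, was high in vitro (259 and 216 against 42.3 and 53.2), and so were Cd27 (-1.06 ± 0.13) and Cd28 (-0.55 ± 0.13). Icos stood at 35.3 and 38.2 against 128 and 102, and Cd226 at 2.38 and 3.77 against 20 and 18.2. Tnfrsf14 was called higher in vitro, but its in vitro replicates were far apart (41.2 and 118 against 19.1 and 23.9).

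The receptor's own signalling machinery leaned to the in vivo side, with few large differences. Of 31 tested genes, 15 were called higher in vivo, 2 of them at least 4-fold, and 5 higher in vitro, and the median was 0.22. Cd247, the signalling zeta chain, stood at 15.8 and 17.5 FPKM in vitro and at 44.6 and 49.1 in vivo (1.47 ± 0.11), and Nfatc2 rose most (2.56 ± 0.12). The kinase gene Zap70 was higher in vitro, at 288 and 230 against 183 and 151 (-0.65 ± 0.16), as were Cd3d (-0.42 ± 0.11) and Cd6 (-0.66 ± 0.13). NF-kB genes gave 7 of 20 higher in vivo and 5 higher in vitro. Bcl3, a nuclear partner of the p50 and p52 subunits, differed by far more than the rest of that list, from 0.757 and 0.742 in vitro to 20.3 and 19.3 in vivo (4.69 ± 0.16).

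Every tested gene of late thymocyte maturation and thymic exit was higher in vivo. All 29 were called, 17 of them at least 4-fold, with a median of 2.38. Klf2 (chromosome 8, 72319033 to 72321656, plus strand), the transcription factor that licenses exit, stood at 13.2 and 17.5 FPKM in vitro and at 149 and 143 in vivo (3.23 ± 0.15, adjusted p = 3.5e-07). S1pr1, the sphingosine phosphate receptor through which thymocytes leave, stood at 4.96 and 7.03 against 32.9 and 51.3 (2.80 ± 0.22). Il7r, the survival receptor for interleukin 7, went from 5.33 and 8.83 to 276 and 224 (5.13 ± 0.26), and Gimap4, a small GTPase of maturing T cells, from 2.77 and 5.1 to 376 and 309 (6.46 ± 0.27). The homing receptor gene Ccr7 differed less (2.28 ± 0.24). Foxo1, which drives Klf2 and Il7r transcription, stood at 7.47 and 8.23 against 22.4 and 28.1. No in vivo value of any gene named here came within the in vitro range.

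Genes of gut intraepithelial lymphocyte precursors were mostly higher in vivo. Of the 24 listed, 14 were tested, of which 9 were called higher in vivo and 3 higher in vitro, and the other 10 have rows in the in vivo tables only. Itgae, which encodes the CD103 chain that anchors cells to epithelium (chromosome 11, 73090583 to 73147446, plus strand), stood at 1.44 and 1.47 FPKM in vitro and at 126 and 87.4 in vivo (6.18 ± 0.23, adjusted p = 1.17e-07). Its partner Itgb7 went from 4.65 and 7.62 to 178 and 145. Runx3, the factor of CD8 and cytotoxic programs, went from 0.358 and 0.428 to 71.4 and 61.7 (7.40 ± 0.18), and Id2, an inhibitor of E proteins, from 1.5 and 2.16 to 297 and 200 (7.09 ± 0.28). Id3, the related inhibitor induced by receptor signals, was higher in vitro instead, at 130 and 121 against 78.4 and 92.5 (-0.58 ± 0.11). Runx3 was under 1 FPKM in both in vitro libraries, so the filter fixed its direction. Xcl1, a chemokine that attracts cross-presenting dendritic cells, had the largest difference toward the in vitro cells in that list, at 648 and 606 against 112 and 80 (-2.73 ± 0.17).

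The cytotoxic program followed the same division. Of 13 tested genes, 11 were called higher in vivo and 2, Xcl1 and Lamp1, higher in vitro, and 8 more have in vivo rows only. Prf1, the pore-forming protein perforin, stood at 2.27 and 2.75 FPKM in vitro and at 24.5 and 16.1 in vivo (3.01 ± 0.23), and Tnf at 0.432 and 0.709 against 15.9 and 10. Prdm1, which encodes the effector factor Blimp-1, had 1 count in each in vitro library and 226 and 150 in vivo, a ratio of 228 (62.6 to 1886). Of 23 NK receptor and adaptor genes, 18 were listed in vivo only, 1 in neither system, and the 4 tested were all higher in vivo.

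Many cytotoxic and NK receptor genes were among those listed in a single system. The in vivo tables hold 940 genes with no row in vitro, 181 of them with a mean of at least 1 FPKM and 39 of at least 10, while the in vitro tables hold 408 with no row in vivo, of which 45 and 6 pass the same levels. A missing row is not a measured 0: the lowest mean count of a listed gene within a system is 5, and the rule by which rows were dropped was not stated. No fold change is given for these genes. The 8 highest in vivo were Gzmb, Zfp683, Klra9, Klrd1, Cxcr3, Fgl2, Gzma and Klrb1c. Gzmb, which codes for the protease granzyme B and lies on chromosome 14 (56258838 to 56262260, minus strand), stood at 285.8 and 155.1 FPKM. Zfp683, coding for Hobit, a factor of tissue-resident lymphocytes, stood at 219 and 148, and the receptor gene Klrb1c at 97.2 and 62.2. Tbx21, which encodes T-bet, stood at 72.2 and 43.7, while its relative Eomes stood at 0.906 and 0.718. Replicate 1 was the higher for each of these genes. The 8 highest named genes in vitro were Map11, Adprhl2, Cramp1l, Mpp6, Hes5, H3f3c, Fam183b and Mpp5. Map11 stood at 26 and 25 FPKM and Hes5, a Notch target, at 0.886 and 7.14; some of the 8 may be listed in vivo under another symbol, which was not resolved.

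**Figure D3:**
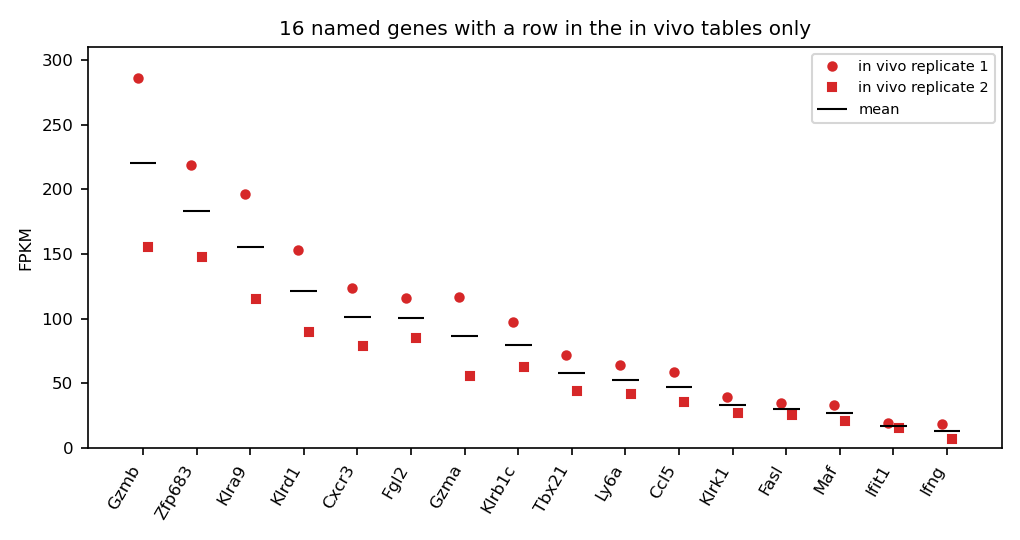
FPKM of 16 named genes that have rows in the in vivo tables only, with a circle for replicate 1, a square for replicate 2 and a line for the mean. Gzmb is the highest at 285.8 and 155.1, and replicate 1 lies above replicate 2 for all 16.

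Lineage factors divided, and several markers of unconventional T cells were higher in the in vivo libraries. Of 28 lineage transcription factors, 14 were called higher in vivo, 11 of them at least 4-fold, and 7 higher in vitro. Zbtb16, which encodes PLZF, the factor of NKT and other innate-like T cells, stood at 0.331 and 0.394 FPKM in vitro and at 27.8 and 26.4 in vivo (6.22 ± 0.15). Of 12 innate-like T cell markers, 8 were called higher in vivo and none higher in vitro, with Il18r1 going from 0.294 and 0.419 to 107 and 85.2 and Il4 from 0.679 and 0.399 to 4.77 and 4.76. Foxp3, the regulatory T cell factor, stood at 0.373 and 0.468 against 8.12 and 17.3 (4.91 ± 0.37), with replicate 2 higher. Regulatory T cell markers gave 10 of 13 higher in vivo, the exceptions being Ikzf2 (119 on average in vitro, -0.89 ± 0.21), Tnfrsf9 and 1 gene not called. The summed FPKM of that list was 434 and 398 in vitro and 390 and 397 in vivo. Blk and Sox13, from the list of γδ T cell markers, stood at 65.5 and 39.9 and at 21 and 15.4 in vivo against 0.232 and 0.113 and 0.155 and 0.142 in vitro. Only 3 members of that list were tested, and the other one was called higher in vivo by 0.50. Zbtb16, Il18r1, Il4, Foxp3, Blk and Sox13 were under 1 FPKM in both in vitro libraries. They passed the level filter through the in vivo libraries only, so their direction was fixed by the filter. The in vivo cells were sorted as TCRb+, a gate that leaves out γδ T cells, and the chain genes that would tell γδ cells from αβ cells have no row in these tables.

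Most tested B cell markers, of a lineage outside the sort, were also higher in the in vivo libraries, and unevenly so. Of 7 tested, 5 were called higher in vivo, 1 higher in vitro (log2 fold change -1.62) and 1 was not called. The summed FPKM of the B cell marker list was 9.59 and 9.62 in vitro and 145 and 46.3 in vivo. Cd74 and H2-Ab1, of MHC class II antigen presentation, stood at 89.4 and 26.9 and at 20.1 and 5.23 in vivo, and 8 of the 19 listed B cell markers have in vivo rows only. Of 21 myeloid and dendritic markers, 13 have in vivo rows only, with Lyz2 at 25.6 and 10.7 and Csf1r at 1.73 and 0.646, but of the 4 tested 2 were called higher in vivo, and the list summed to 52.4 and 49.4 in vitro against 71.3 and 51.1 in vivo, where the groups overlap. Erythroid markers summed to 1.73 and 12.8 in vitro and to 1.83 and 1.48 in vivo, with 1 of 2 tested genes called higher in vitro. Markers of early double-negative thymocytes were higher in vivo in all 5 tested genes, Kit going from 0.664 and 0.989 to 10.7 and 19.5. Kit and Mycn were under 1 FPKM in both in vitro libraries, so the filter fixed their direction, and 4 members were under it. Il7r, of the same list, was also counted among the maturation genes, and Il2ra differed least (0.49 ± 0.19). In vivo replicate 1 was the higher for the B cell and myeloid sums as it was for the cytotoxic genes, and the part of other cells in the results above was not tested. When in vivo replicate 1 was left out, 6394 of the 6648 calls were still made in the same direction, and when replicate 2 was left out, 6351.

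Receptors for cytokines were higher in vivo in 22 of 26 tested genes, with 1 higher in vitro and a median of 2.04. Il2rb, the shared receptor chain for interleukins 2 and 15, went from 29.9 and 29.7 FPKM to 541 and 502 (4.11 ± 0.15). Il2ra, the activation-induced partner chain, was low in both groups (4.86 and 4.67 against 5.2 and 8.5, 0.49 ± 0.19, adjusted p = 0.0484). Il12rb2 went from 0.132 and 0.113 to 16.8 and 14.7, and Il18rap from 0.074 and 0.0725 to 50.2 and 34.2. The exception was Il21r, at 128 and 102 in vitro against 47.3 and 59.2 in vivo (-1.14 ± 0.15). JAK, STAT and SOCS genes downstream of them gave 12 of 19 higher in vivo and 4 higher in vitro. Cish, a feedback inhibitor induced through STAT5, went from 0.0454 and 0.0381 to 8.53 and 9.48 (7.67 ± 0.21), and Stat4 from 1.26 and 1.6 to 11.7 and 11.9.

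Trafficking receptors leaned the same way. Of 18 chemoattractant receptors, 13 were called higher in vivo and 3 higher in vitro, and of 21 integrin and adhesion genes 19 and 1. Cxcr6, which guides innate-like and resident T cells, went from 1.27 and 1.36 to 98.5 and 86.4 (6.12 ± 0.16), Ccr2 from 0.0678 and 0.0815 to 19.5 and 13.6, and the memory and activation marker Cd44 from 0.676 and 0.587 to 35.6 and 25.8 (5.57 ± 0.21). Icam2 was the adhesion gene higher in vitro (-0.60 ± 0.11).

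Interferon-stimulated genes were higher in vivo without exception among those tested. All 38 were called, 29 of them at least 4-fold, with a median of 3.20, and 8 more have in vivo rows only. Irf7, the factor that amplifies interferon responses, stood at 0.849 and 0.843 FPKM in vitro and at 48 and 39.6 in vivo (5.67 ± 0.17, adjusted p = 5.62e-08). Isg15, a ubiquitin-like modifier, went from 0.415 and 0.696 to 26.9 and 19.4, and Oas3, a sensor of double-stranded RNA, from 0.0354 and 0.0779 to 17.8 and 14 (8.19 ± 0.27). Irf7, Isg15 and Oas3 were under 1 FPKM in both in vitro libraries, so the filter fixed their direction. The count of 38 was not taken again over members at 1 FPKM or more in both groups. Irf9, part of the interferon-activated transcription complex, was higher by 2.20 ± 0.11, and its partner Stat2 by the least of all members tested (0.74 ± 0.10). Antigen presentation by MHC class I gave 14 of 19 higher in vivo and 3 higher in vitro: B2m, the light chain of class I molecules, went from 315 and 285 to 2644 and 1996, and Nlrc5, its transactivator, from 1.24 and 2.02 to 38.3 and 42.4. The immunoproteasome gene Psmb8 was slightly higher in vitro (-0.37 ± 0.13).

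The promoters of these genes held the letters of the interferon response element in a larger share than promoters at large, a comparison of shares with no test. The motif searched was GAAANNGAAA on both strands, in windows from 250 bases before to 50 bases after each start in RefSeq's annotation of GRCm38.p6. Of the 38 tested interferon-stimulated genes 26 had a window, and 16 of these held the motif (61.5%), against 309 of 8183 tested genes with a window (3.78%) and 3.44% of all windows. The same search for the sterol element TCACNCCAC found it in 1 of 17 tested sterol synthesis genes with a window (5.88%) and in 1.43% of the tested genes, and for the E-box CACGTG, bound by Myc among others, in 7 of 24 ribosome biogenesis genes (29.2%) against 12.4%. Below are the windows of 2 interferon-stimulated genes and of Hmgcs1, the sterol gene with a match, shown because they hold the motifs; capitals mark the motif. They are Ifit3 on chr19:34583279-34583578 (plus strand), Oas3 on chr5:120777610-120777909 (minus strand) and Hmgcs1 on chr13:119690101-119690400 (plus strand). A match is a match of letters and not a shown binding site.
Ifit3: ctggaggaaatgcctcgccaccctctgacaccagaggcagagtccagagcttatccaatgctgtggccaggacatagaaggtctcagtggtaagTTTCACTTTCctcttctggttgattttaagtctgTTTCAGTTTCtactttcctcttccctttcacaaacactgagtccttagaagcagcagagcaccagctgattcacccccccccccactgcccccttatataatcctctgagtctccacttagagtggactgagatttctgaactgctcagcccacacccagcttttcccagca
Oas3: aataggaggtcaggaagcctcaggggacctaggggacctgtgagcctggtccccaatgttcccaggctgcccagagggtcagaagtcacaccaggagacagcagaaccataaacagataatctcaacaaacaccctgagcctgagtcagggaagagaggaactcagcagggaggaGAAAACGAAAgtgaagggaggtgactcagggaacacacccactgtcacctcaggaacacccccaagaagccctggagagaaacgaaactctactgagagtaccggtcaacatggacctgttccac
Hmgcs1: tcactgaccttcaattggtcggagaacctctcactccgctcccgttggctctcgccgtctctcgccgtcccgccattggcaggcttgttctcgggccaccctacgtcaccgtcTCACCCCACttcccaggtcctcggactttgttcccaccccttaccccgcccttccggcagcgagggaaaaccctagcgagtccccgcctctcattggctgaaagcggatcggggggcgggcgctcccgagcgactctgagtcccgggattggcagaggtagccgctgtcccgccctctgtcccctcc

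Genes of mitosis were higher in vivo in 23 of 27 tested, 17 of them at least 4-fold, with a median of 3.09. The levels remained modest. Mki67, the proliferation marker Ki-67 (chromosome 7, 135689784 to 135716361, minus strand), stood at 0.464 and 0.578 FPKM in vitro and at 15.4 and 13.8 in vivo (4.80 ± 0.15), and Top2a at 1.13 and 1.53 against 13.9 and 10.5. Ccna2, the cyclin of S phase and mitosis, went from 0.235 and 0.225 to 6.18 and 4.14. Mki67 and Ccna2 were under 1 FPKM in both in vitro libraries and passed the level filter through the in vivo libraries only. Their direction was thus fixed by the filter, and 3 further members were under it. The count was not taken over members at 1 FPKM or more in both groups. Racgap1, of the central spindle, was the 1 gene higher in vitro (-0.86 ± 0.16). Genes of DNA replication did not move as a block: 20 of 38 were called higher in vivo and 4 higher in vitro, with a median of 0.43. Rrm2, a subunit of the enzyme that makes deoxynucleotides, and Cdc6, which loads the replicative helicase, were higher in vivo (3.20 ± 0.25 and 3.01 ± 0.27). The clamp gene Pcna and the helicase gene Mcm6 were higher in vitro, at 81.7 and 77.8 against 38.5 and 30.4 and at 136 and 125 against 68.1 and 61.4. Brakes of the cell cycle and p53 targets gave 11 of 19 higher in vivo, none of them 4-fold.

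Survival genes were higher in vivo in 9 of 14 and in none higher in vitro. Bcl2 stood at 7.92 and 9.04 FPKM in vitro and at 28.9 and 38.5 in vivo (1.97 ± 0.14), and the survival kinase gene Pim2 at 6.6 and 6.48 against 25.6 and 29.9. Of 17 pro-apoptotic genes, 6 were higher in vivo and 4 higher in vitro. Among the latter was Bcl2l11, which encodes Bim, the protein that kills thymocytes after strong signals, at 43.8 and 41.3 against 19.7 and 23.8 (-0.99 ± 0.12).

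Sterol synthesis was the clearest pathway on the in vitro side. Of 24 genes, 23 were called higher in vitro, 14 of them at least 4-fold, and none higher in vivo, with a median of -2.08. Idi1 (chromosome 13, 8885501 to 8892451, plus strand), which isomerizes the building block of isoprenoids, stood at 27.5 and 25.1 FPKM in vitro and at 0.426 and 0.621 in vivo (-5.67 ± 0.18, adjusted p = 6.86e-08). Sqle, which makes the first oxygenated sterol precursor (chromosome 15, 59315077 to 59331192, plus strand), stood at 23.7 and 19.5 against 1.33 and 1.29 (-4.07 ± 0.15). Hmgcs1, an early enzyme of the pathway, differed by -2.46 ± 0.12, and Srebf2, the pathway's own transcription factor, by -2.03 ± 0.13. Ebp, an isomerase of late sterol synthesis, was the 1 gene not called, at 18.1 and 15.4 against 19.3 and 15. Genes of sterol efflux went the other way: of 5 tested, 4 were higher in vivo, among them Abcg1 (0.536 and 0.637 against 34.4 and 29.6) and Mylip, a ubiquitin ligase gene of sterol control (3.17 and 3.84 against 60.8 and 47.8). Fatty acid synthesis was divided, with Fasn higher in vitro (-1.04 ± 0.16) and Scd2 higher in vivo (1.44 ± 0.11).

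**Figure D4:**
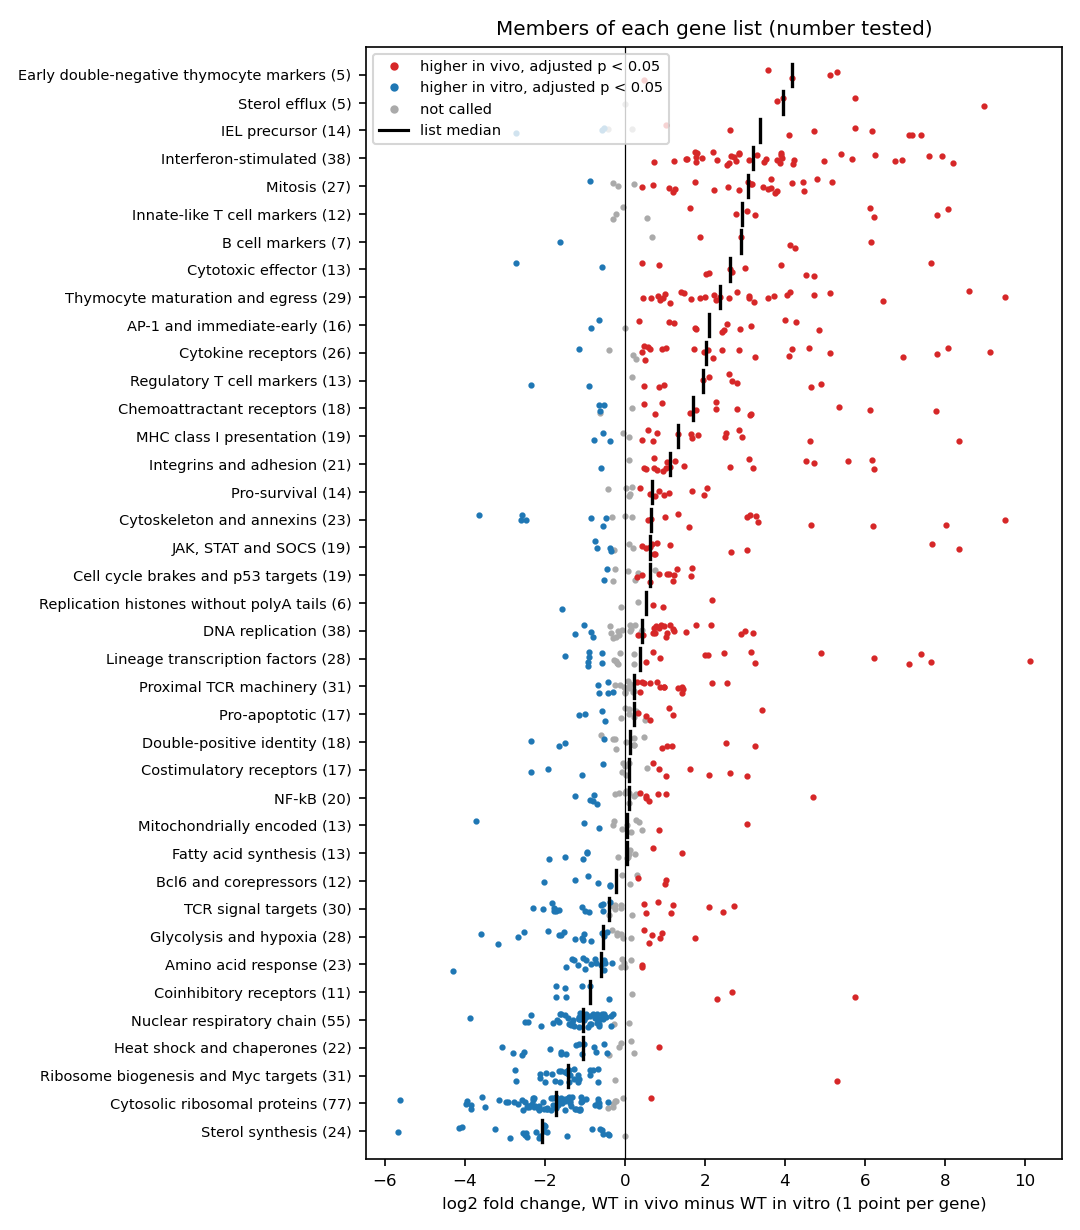
Log2 fold change (x, WT in vivo minus WT in vitro) of each tested member of the gene lists with at least 5 tested genes (y, sorted by median, black bar), red for genes called higher in vivo, blue for genes called higher in vitro and grey for genes not called. The lowest median is that of sterol synthesis (-2.08), and interferon-stimulated genes (3.20) and mitosis (3.09) lie near the top.

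Several other lists of metabolism and growth had more calls on the in vitro side. Of 31 genes of ribosome biogenesis and targets of Myc, 29 were called higher in vitro (median -1.42), although Myc itself was not called. Fbl, the nucleolar methyltransferase fibrillarin, stood at 93.8 and 85.2 FPKM against 14.7 and 12.7, and Ncl, nucleolin, at 181 and 158 against 63.5 and 64.9. Mycn was the member higher in vivo, with 5 and 3 counts in vitro and 178 and 92 in vivo. Amino acid response and transport genes gave 16 of 23 higher in vitro, led by Slc1a4, with the arginine transporter gene Slc7a1 at 52.6 and 49.5 against 17.2 and 20.2. Nuclear genes of the respiratory chain gave 53 of 55 higher in vitro (median -1.04), with Ndufa12 at 42.4 and 37.7 against 7.01 and 7.57. Glycolysis and hypoxia genes gave 16 of 28 higher in vitro: the lactate exporter gene Slc16a3 stood at 29.1 and 27.9 against 4.37 and 4.71 (-2.67 ± 0.11), while the glucose transporter gene Slc2a3 and the kinase gene Pdk1 were higher in vivo (1.76 ± 0.11 and 0.67 ± 0.11). Heat shock and chaperone genes gave 16 of 22 higher in vitro, Hspd1 standing at 297 and 249 against 32.5 and 33.8.

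The largest single block on the in vitro side, 70 of 77 cytosolic ribosomal protein genes (median -1.73), is also the one where the measurement is least certain. Ribosomal protein genes made up 7.25% and 6.33% of all counts in vitro and 2.65% and 2.17% in vivo. Most have many processed copies elsewhere in the genome, and how reads that map to several places were counted in each system was not stated. For each gene the share of its 31-base stretches that also occur in another annotated gene was computed from GENCODE's transcripts. Only 1 of the 77 had a share of at most 5%, so the list has no counterpart among genes with little shared sequence. Rpl23a, with a share of 52.3%, stood at 666 and 507 against 4.02 and 20.6.

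The same pattern held across all genes. The median log2 fold change was 0.08 for genes with at most 1% of their sequence shared, 0.04 from 1% to 5%, -0.36 from 5% to 20%, -0.81 from 20% to 50% and -0.91 above 50%. Among the 8192 genes with at most 5% shared, 35.7% were called higher in vivo and 28.6% higher in vitro. Within these genes sterol synthesis kept 18 of 19 higher in vitro (median -2.03), the respiratory chain 36 of 38 (-0.89) and ribosome biogenesis 17 of 19 (-1.26). Glycolysis gave 6 of 17 in each direction (median -0.10), and Gapdh and Pgam1, its members with the largest difference toward the in vitro cells, share 27.2% and 37.1%. Heat shock genes gave 7 of 13 higher in vitro (-0.44), and Hspd1 and Hsp90aa1 share 50.1% and 51.4%. Cytoskeleton and annexin genes were called higher in vivo in 13 of 23 and higher in vitro in 7, of which 1 has little shared sequence; Tuba1b, at 145 and 128 in vitro and 12.7 and 9.31 in vivo, shares 68.9%, while Ahnak, at 0.15 and 0.15 against 38.8 and 40.5, shares 0.02%. All 24 interferon-stimulated genes and all 21 maturation genes with little shared sequence were higher in vivo. Among mitochondrially encoded genes, which have copies in the nuclear genome, mt-Nd3 (98.1% shared) stood at 48 and 38.3 in vitro and 3.26 and 3.39 in vivo, and mt-Atp6 (99.5% shared) at 31.3 and 16.7 against 45.1 and 44.4, while 8 of 13 were not called.

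**Figure D5:**
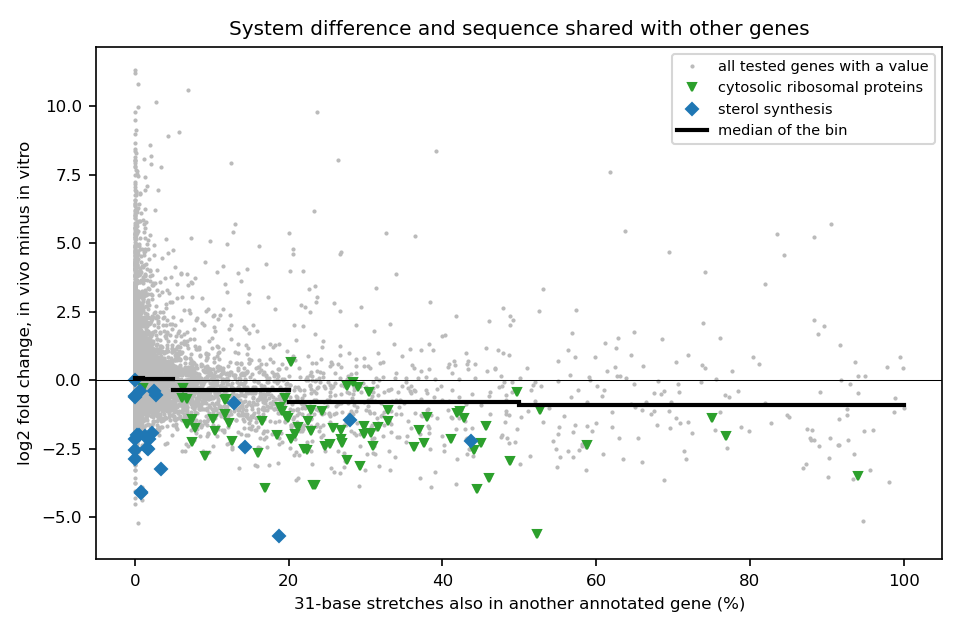
Log2 fold change (y, in vivo minus in vitro) of each tested gene against the percentage of its 31-base stretches found in another annotated gene (x), with cytosolic ribosomal proteins as green triangles, sterol synthesis genes as blue diamonds and a black bar at the median of each bin. The medians fall from 0.08 in the lowest bin to -0.91 in the highest, and 19 of the 24 sterol synthesis genes lie at or under 5%.

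The same contrast could be drawn in the 4 libraries labelled KO, which come from the same 2 providers and so share that limit. Bcl6 does not check these labels, since a count over the whole gene also covers exons outside a deletion: it stood at 64.6 and 61 FPKM in the in vitro libraries labelled KO, above the WT values, and at 8.81 and 14.4 in those in vivo. Of 10072 genes tested there, 3250 (32.3%) were called higher in vivo and 3231 (32.1%) higher in vitro. Of the 6648 genes called in WT, 6540 could be tested, and 6118 had the same direction, 5054 of them called, while 86 were called in the opposite direction. Of the 949 calls of at least 4-fold that could be tested, 934 were called in the same direction. The size of the system difference itself differed between KO and WT libraries in 1568 of 10276 genes (15.3%). Klf2 was one of them, with 3.23 in WT and 0.81 in KO libraries, and S1pr1 another, with 2.80 and 0.13.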

How the data were processed

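RNA was extracted with TRIzol, and Novogene made the in vitro and BGI Genomics the in vivo libraries, per the labels. Each deposited table gives a count per gene, taken as the authors' read counts, and an FPKM value made by the authors. Build mm10 and the tools RSEM, Bowtie2, DESeq2, Subread, featureCounts and Trim Galore 0.4.4 are listed, per the submitters' processing notes, with no order. The annotation, the strand setting and the row filter were not stated. Count and FPKM implied the same gene lengths in both systems. The tables were joined by symbol. Of 13073 symbols, 12923 matched GENCODE vM21 and 12857 of these are protein coding there; noncoding RNAs were not analysed here. Some items are not reported here.

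Counts of genes that reached 1 FPKM in 2 or more of 4 libraries were scaled by TMM and fitted with edgeR 4.0.16 (R 4.3.3; quasi-likelihood test, Benjamini-Hochberg adjustment). The KO minus WT difference of the system effect was fitted over 8 libraries. Replicates differed beyond counting noise (chi-square per degree of freedom 10.3 for in vitro, 19.5 for in vivo pairs), and each library counted once. Tested on simulated counts, the system fit over 10056 genes found 99 of 100 simulated 2-fold changes and 100 of 100 simulated 4-fold changes, and made 14 false calls. No other genes were changed there, and directions were random, while 66.1% of genes were called in the data. The simulation therefore does not show how the scaling does when most genes differ. The alternatives used DESeq2 1.42.0 and limma 3.58.1, other scalings and filters, single libraries left out, and only genes with little shared sequence, the last chosen after seeing the data. Intervals are exact and cover 95% of counting error only.

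The gene lists and the members were chosen with earlier results of these data known. Named genes follow a rule: a fixed set of 16, the 12 largest calls each way with mean FPKM of at least 5 and no overlap, up to 4 members per list and direction, the 8 highest genes of 1 system and the 6 most abundant; further members were named after their values were seen.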

Additional observations from a re-analysis of the deposited data

Results flagged for a closer look

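For 39 of 149 named genes with a value, the system difference was not the same in the libraries labelled KO as in WT, by an edgeR test of the difference itself (adjusted p under 0.05) and at least 2-fold in size. Values are the KO minus WT difference on the log2 scale, over 2 libraries in each of 4 groups. In 29 genes it was negative and in 10 positive. At the adjusted p alone, 56 of the 149 passed, against 15.3% of all 10276 genes, and no share over all genes was taken at the 2-fold size. Many of the 149 were named for a large WT difference, which enters these values. A smaller difference in KO libraries is thus favoured by the choice, and neither the share nor the signs can be read as a trait of these genes. The largest were in genes that were far higher in vivo in WT: Zbtb7b at -4.81, Prdm1 at -4.20, Igfbp4 at -4.18, Kit at -3.53, Adam19 at -3.51 and Mycn at -2.99; Zbtb7b, Prdm1, Igfbp4, Adam19 and Mycn had few counts in WT in vitro, so these sizes are imprecise.

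Of the named genes of maturation and egress, the difference was called for S1pr1 at -2.67, Klf2 at -2.42, Il7r at -1.75 and Gimap4 at -1.73. It was also called for Itgae at -2.58, Itgb7 at -2.18, Runx3 at -2.15, Cxcr6 at -2.0, Id2 at -1.66, Il18r1 at -1.44 and Il2rb at -1.05. Interferon and class I genes gave -1.76 for Oas3, -1.62 for Nlrc5 and -1.22 for Irf7. Signal and survival genes gave -2.01 for Cish, -1.56 for Egr3, -1.50 for Bcl3 and -1.28 for Pim2, and Abcg1 and Ahnak gave -1.15 and -1.01. Another 3 genes, higher in vitro in WT, were more so in the libraries labelled KO: Bcl6 at -1.55, Id3 at -1.54 and Tigit at -1.34.

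On the positive side, Il2ra at 2.36 was further toward the in vivo side in KO libraries. The others were higher in vitro in WT and less so in those labelled KO: Xcl1 at 2.35, the sterol genes Idi1 at 1.48, Sqle at 1.41 and Cyp51 at 1.18, the transporters Slc1a4 at 1.40 and Slc16a3 at 1.21, and the chaperones Hsp90aa1 at 1.33 and Hspd1 at 1.30. Racgap1, at 1.31, is the 1 gene here whose difference changed sign, from -0.86 in WT to 0.45 in KO libraries.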

How the results depend on the processing

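Counts of calls moved by more than 1.5 times under these alternatives only. A test against a 2-fold change called 1131 genes higher in vivo and 683 higher in vitro. Of the calls of at least 4-fold, limma on log2(FPKM + 1) gave 404 in vivo and 166 in vitro, where the added 1 shrinks low genes; an FPKM of at least 1 in all 4 libraries left 304 in vivo and of at least 5 in at least 2 libraries 456, with fewer genes tested; genes with little shared sequence gave 103 in vitro, again among fewer genes. A mean of at least 1 FPKM left 181 genes listed in vivo only and 45 in vitro only. Leaving out 1 library gave 2553 to 3459 calls higher in vivo and 2408 to 3558 higher in vitro, 689 to 767 and 237 to 278 of at least 4-fold, and 25 to 29 lists with most members called one way (28 with all 4); 1 library is then assumed to vary like the other group. The replicate numbers are only shared labels (correlation of same-numbered deviations 0.14 over 10056 genes, 2 pairs): the replicate block gave 3463 and 3541 calls. A further 3 values turned direction. The median of the replication histones went to -0.13 without the filter. The gene mt-Nd4l, called higher in vitro in the main fit, went to 0.25 with a length-dependent offset and was not called there. Actb, not called in the main fit, went to -0.018 without the filter and lay between -0.11 and 0.15 with 1 library left out. The cause of these turns was not tested. No gene called in WT changed direction under the alternatives over all genes except 16 under the length-dependent offset. With 2 libraries a group, small differences of low genes are beyond this depth.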

Other observations

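Some of the largest differences toward the in vitro cells belong to genes outside the lists. Zc3h12c, which encodes an RNase of the regnase family, stood at 9.16 and 10.3 FPKM in vitro and at 0.445 and 0.754 in vivo. Lars2, the mitochondrial leucyl-tRNA synthetase gene, stood at 73.4 and 59.9 against 2.8 and 3.69, with 0.87% of its 31-base stretches shared. Hnrnpf, an RNA-binding protein gene, stood at 151 and 137 against 10 and 9.59, with 38.5% shared. Igfbp4 and Ly6c2, on the in vivo side, went from 0.0283 and 0.0554 to 22.8 and 21 and from 0.0456 and 0.112 to 83.4 and 50.4.

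The system difference also moved with gene length, taken from count and FPKM and known up to a constant. The median log2 fold change rose from -0.30 in the shortest of 4 equal bins of genes to 0.16 in the longest, and the rank correlation across genes was 0.20 (10056 genes, which are not independent replicates). In the libraries labelled KO, from the same providers, it was 0.24. With the share of sequence found in other genes the rank correlation was -0.16 over 9967 genes in WT and -0.14 in the libraries labelled KO.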
